A study of Rattus norvegicus with 48 samples.

Results

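Slices of fibrotic rat liver treated with SB525334, which blocks the kinase of the TGF-beta receptor ALK5, were compared with vehicle-treated slices of sham-operated rats. The comparison takes in 18 of the 48 libraries of the series: 9 labelled BDL_SB525334 and 9 labelled Sham_veh, chosen by the start of their titles. It asks which of the expression differences that bile duct ligation brings remain when ALK5 is inhibited, which are no longer called, and which end on the other side of the sham level.

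Precision-cut slices are thin sections of living tissue that keep the cells of the organ in place outside the body. Bile duct ligation (BDL) blocks the outflow of bile and leads to cholestatic injury and fibrosis. The 9 treated libraries carry both ligation and SB525334, and the 9 reference libraries carry neither, so ligation and compound differ together here. Ligated slices with vehicle (BDL_veh, n = 10) served as the bridge between them, and ligated slices with Sora or Nint (n = 10 each, read here as sorafenib and nintedanib, inhibitors of several kinases) are given only for scale. All 5 groups are liver slices of Rattus norvegicus. The labels used here give no dose, time in culture, age, sex or strain, and do not say whether the numbered replicates of a group came from separate animals. The p-values therefore reflect only how these libraries vary, part of which can be technical. The deposited sample sheet names the SB525334 libraries by another compound code in 9 of 9 cases, so the identity of the compound rests on the labels.

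TGF-beta binds a pair of receptor types at the cell surface, and the type I receptor ALK5 passes the signal on by phosphorylating the transcription factors SMAD2 and SMAD3. In liver the pathway is known for turning hepatic stellate cells into matrix-producing myofibroblasts, and it also restrains the growth of hepatocytes and acts on cholangiocytes and immune cells. In cholestasis the fibrosis comes with an expansion of bile ductules, so the tissue changes in cell composition as well as in the activity of each cell. In bulk RNA, fewer cells of a type and less RNA per cell cannot be told apart. The genes are known here only by Ensembl IDs, none of which could be paired with a symbol, so gene lists, cell type markers and the tissue label itself could not be checked by name. The results are given for gene groups, for RNA classes and for 4 genes by ID.

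Total counts ran from 12570324 to 15523908 (median 14107945) in the SB525334 libraries and from 13551758 to 17386923 (median 16766287) in the sham libraries. Levels are given as CPM, counts scaled to library size. A gene with no count in a library could still be present at up to 3 counts, or 0.173 to 0.239 CPM, by counting error alone. SB525334 libraries 1, 6 and 8 stood apart from the other 6. They held 13185, 13294 and 13273 genes at 1 CPM or more, against 12765 to 12940 in the others. Genes outside the authors' protein-coding table took 13.5%, 11.9% and 13.1% of their counts, against 16.5% to 24.2%. Among sham libraries, numbers 1, 4 and 9 had the most genes outside the range of the other sham libraries. The median within-group standard deviation per gene, in log2 CPM, was 0.298 in SB525334, 0.286 in sham and 0.143 in ligated vehicle libraries. For SB525334 without libraries 1, 6 and 8 it was 0.234. Values that moved by over 1.5 times without these libraries are given with and without them, as are the counts at 2-fold and past the sham level.

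Ligated slices on SB525334 remained far from sham slices. Of 14775 genes tested, 6332 (42.9%) were higher and 5672 (38.4%) lower than in sham, so 12004 (81.2%) differed (quasi-likelihood test of edgeR, called at 0.05 after Benjamini-Hochberg adjustment). Ligated slices with vehicle differed from the same sham libraries at 12146 genes (82.2%), those on Sora at 11880 (80.4%) and those on Nint at 11955 (80.9%). All 4 comparisons share the 9 sham libraries. The number of genes that differ was thus close to that of untreated ligated slices. At 2-fold or more the counts were 3789 higher and 1896 lower with SB525334, against 3798 and 1897 with vehicle, and at 4-fold or more 2375 were higher with SB525334 against 2525 with vehicle, with 2.92% and 2.98% of genes lower. The 16-fold rises were fewer: 692 genes were at least 16-fold higher than sham with SB525334, against 961 with vehicle, 889 with Sora and 952 with Nint. At least 16-fold lower were 64 genes with SB525334 and 67 with vehicle. A gene scarce in sham could enter the test through any ligated group in which it was high, which favours large rises, so the balance of large rises and falls is not read as a result. Without SB525334 libraries 1, 6 and 8 the genes at least 2-fold lower numbered 2475 and those at least 2-fold higher 3838. Without sham libraries 1, 4 and 9 these counts were 1921 and 3992.

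The groups were also compared library by library. At 3484 genes (23.6% of those tested) every SB525334 library lay above every sham library, and at 2643 (17.9%) every one lay below. For the vehicle libraries of ligated slices these counts were 4056 (27.5%) and 3719 (25.2%). Single SB525334 libraries had 5235 to 5671 genes above the whole sham range (median 5386), against 5018 to 5442 (median 5144) for ligated vehicle libraries. They had 4150 to 5110 genes below it (median 4612), against 4981 to 5106 (median 5029) for vehicle. Counted by single libraries, the upper tail was therefore as full in treated slices as in untreated ones. The lower tail held fewer genes than in any vehicle library in 7 of 9 treated libraries. The lowest counts, 4150 and 4235, were in libraries 8 and 1. Counted over all libraries of a group, both tails held fewer genes with SB525334 than with vehicle. Such counts also depend on the spread within a group. Its median per gene was 0.298 with SB525334 and 0.143 with vehicle (standard deviation in log2 CPM), and its part was not tested.

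Most genes that ligation changed stayed changed on the same side. Of 12146 genes called between ligated and sham vehicle slices, 8976 (73.9%) were called in the same direction with SB525334, 1269 (10.4%) were called in the opposite direction, and 1901 (15.7%) were not called against sham. These shares are read against a background of 81.2% of all genes called. Each class is a description, since ligation and treatment were both measured against the same sham slices.

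The genes that stayed higher than sham numbered 4659. Their median log2 difference from sham was 1.96 with SB525334 and 2.07 with vehicle, and 3442 of them were at least 2-fold above sham. The nearly equal medians hide movement in both directions: compared with ligated vehicle slices, 1740 of these genes were lower with SB525334, 1482 were higher, and 1437 were not called. At 3112 of them every SB525334 library was above every sham library, as at 3484 (23.6%) of all genes tested. The choice of the class by its call favours such genes. The background for the comparison of SB525334 with vehicle is 10785 genes called, or 73% of those tested.

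The genes that stayed lower than sham numbered 4317, with a median log2 difference of -0.81 in treated and in untreated ligated slices. Of these, 1595 were at least 2-fold below sham. Against ligated vehicle slices 1493 were higher, 1360 lower and 1464 not called, again a split in both directions. At least 4-fold below sham were 397 of these genes. At 2391 every SB525334 library was below every sham library, as at 2643 (17.9%) of all genes tested. Here too the choice of the class favours such genes.

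Whether a gene stayed changed went with the size of its ligation difference. Among 961 genes raised at least 16-fold by ligation, 926 (96.4%) stayed higher, 34 were not called and 1 ended below sham. Their median log2 difference from sham was 5.0 with vehicle and 4.05 with SB525334, and 640 of them (66.6%) were lower than in vehicle slices. Among 1564 genes raised 4 to 16-fold, 93.4% stayed higher, with medians of 2.89 and 2.56. For the 1273 genes raised 2 to 4-fold the share was 81.6%, and the middle of the treated values ran from 0.61 to 1.97 (quartiles). Among 2113 genes raised less than 2-fold, 58.4% stayed higher and 18.6% ended below sham; with scaling to total counts, which puts 3336 genes in this range, the shares were 40% and 33.2%. The largest rises thus shrank in most cases and still left the genes well above sham.

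The same order held for genes that ligation lowered. Of 67 lowered at least 16-fold, 65 (97%) stayed lower, and their median log2 difference was -4.84 with vehicle and -3.92 with SB525334. Of 374 lowered 4 to 16-fold, 85.8% stayed lower, with medians of -2.54 and -1.97, and of 1456 lowered 2 to 4-fold, 82.4% did. Among the 4338 genes lowered less than 2-fold, 63% stayed lower and 17.2% ended above sham. With total counts these shares were 77.8% and 7.15% of 2995 genes. That scaling also left smaller gaps between vehicle and SB525334 in the other classes. The medians were -5.16 and -4.89 at 16-fold or more, -2.56 and -2.16 at 4 to 16-fold, and -1.32 and -1.28 at 2 to 4-fold. In the last class 31.6% moved back against vehicle and 32.9% moved further, compared with 56.7% and 15.2% under TMM. Because the genes were sorted by a contrast that shares its sham and vehicle libraries with these values, the sorting itself can make differences look smaller with treatment; its part was not tested.

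**Figure D1:**
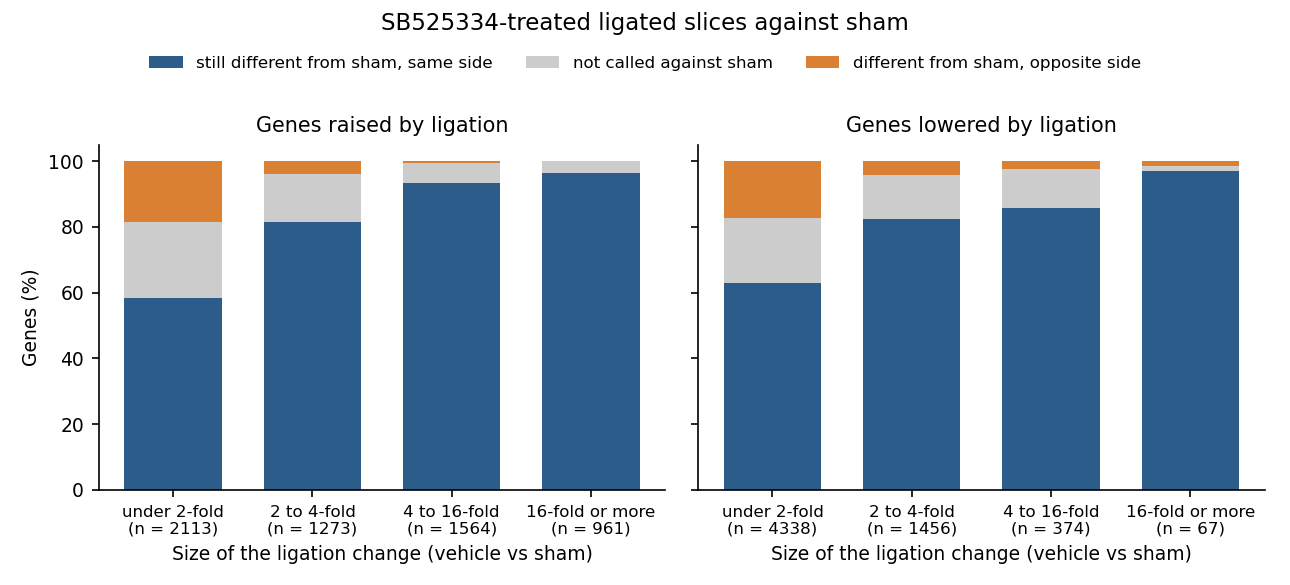
Share of genes (%, vertical axis from 0) in each outcome against sham with SB525334, by size and direction of the ligation difference (horizontal axis, vehicle-treated ligated against sham, number of genes under each bar). The share still different on the same side is 58.4% for raises under 2-fold and 96.4% for raises of 16-fold or more, and the share on the opposite side is mostly in the bars under 2-fold.

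Seen in each library, the SB525334 slices lay apart from every other group on the genes raised at least 16-fold by ligation. These genes were picked for being high in vehicle and low in sham libraries, which sets those 2 groups apart beforehand. Only the gap to Sora and Nint does not follow from that choice. Their median log2 difference from the sham mean was 3.09, 2.98, 3.01, 3.29, 3.32, 3.32, 3.24, 3.13 and 3.12 in SB525334 libraries 1 to 9. In vehicle libraries it ran from 4.18 to 4.40, with Sora from 3.76 to 4.21 and with Nint from 4.0 to 4.34. The SB525334 libraries thus lay below all libraries of the other ligated groups and far above the sham libraries, which ran from -0.27 to 0.13. These medians use log2 CPM with a prior count of 2, which understates the differences of low genes. Libraries 1, 6 and 8 were not set apart on this measure.

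On the genes lowered at least 16-fold the SB525334 libraries varied more and overlapped with vehicle. Their medians were -3.57, -3.91, -4.02, -5.04, -4.65, -3.52, -3.83, -3.19 and -4.25 in libraries 1 to 9, against -4.75 to -3.93 in vehicle libraries. Libraries 4 and 5 were the lowest, and libraries 8, 6 and 1 the highest. For genes lowered 4 to 16-fold the medians in libraries 1, 6 and 8 were -1.52, -1.57 and -1.48, against -2.86 to -1.89 in the other 6. On these genes the middle library was at -1.93 with SB525334, -1.82 with Sora and -1.92 with Nint.

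**Figure D2:**
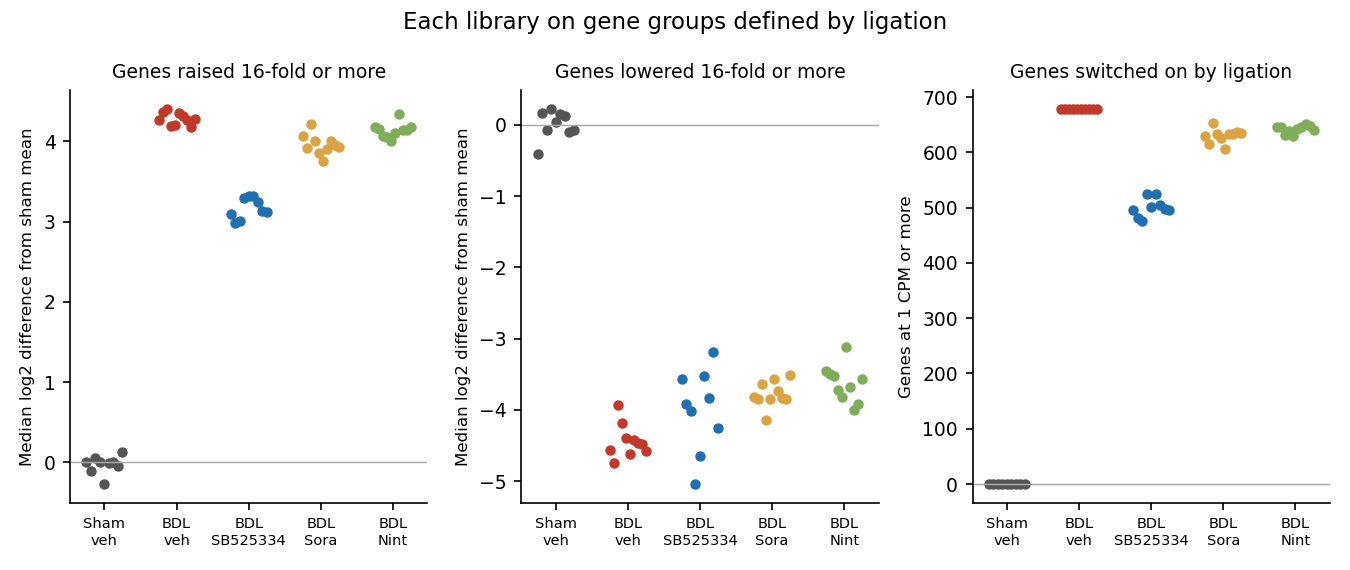
Each point is 1 library; groups are on the horizontal axis. The left and middle panels give the median log2 difference from the sham mean over genes raised or lowered at least 16-fold by ligation, and the right panel counts the genes switched on by ligation that are at 1 CPM or more. SB525334 libraries lie at 2.98 to 3.32 in the left panel and at 476 to 525 genes in the right one, below all other ligated groups. In each panel the genes were picked by vehicle against sham, so the places of those groups are set beforehand. In the right panel every vehicle library is at 678 by definition.

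Genes that ligation switched on were followed at a limit of 1 CPM, which counts genes and not amounts of expression. They were picked for being on in vehicle, so no other group can have more of them on. There were 678 genes at 1 CPM or more in all 10 vehicle libraries and under it in all 9 sham libraries. Of these, 375 (55.3%) were on in every SB525334 library, 66 (9.73%) were off in every one, and 237 were mixed. Single SB525334 libraries had 476 to 525 of them on, against 606 to 653 with Sora and 630 to 651 with Nint, with no overlap. In the other direction, 67 genes were on in all sham libraries and off in all vehicle libraries. With SB525334, 36 of them were off in every library, 4 were back on in every library and 27 were mixed. Under total counts 807 genes were switched on and 49 off by these definitions. Of the 807, 405 (50.2%) were on in every SB525334 library and 98 (12.1%) off in every one. Of the 49, 28 were off in every SB525334 library and 3 on in every one.

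Counted without reference to vehicle, 455 genes were on in every SB525334 library and off in every sham library. Of these, 375 were also on in every vehicle library, 15 were off in every vehicle library and 65 were mixed there. A further 61 genes were on in every sham library and off in every SB525334 library. Of those, 36 were off in every vehicle library too, 7 were on in every vehicle library and 18 were mixed. With scaling to total counts 461 and 63 genes met these definitions, of which 7 of the 461 were off in every vehicle library and 11 of the 63 on in every one.

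A smaller group of genes went past the sham level. Of the genes raised by ligation, 451 were lower than sham with SB525334, with a median log2 difference from sham of 0.47 in vehicle slices and -0.52 in treated slices. Of these, 75 were at least 2-fold below sham. At 53 of the 451 every SB525334 library was below every sham library, against 17.9% of all genes tested. Of the genes lowered by ligation, 818 were higher than sham with SB525334, moving from a median of -0.46 to 0.40. Of these, 108 were at least 2-fold above sham. At 143 of the 818 every SB525334 library was above every sham library, against 23.6% of all genes tested. Both classes were picked by their call against the same sham libraries, so these counts are descriptions.

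The split between these directions depended on the scaling of the libraries. Genes that ended below sham made up 35.5% of those past it under the TMM scaling used throughout. The share was 44.3% under RLE factors and 44.7% in DESeq2, and scaling to total counts gave 84.1% (1286 against 243 genes). Between TMM and total counts the centre of the ligation comparison moved too: its median log2 difference over all genes went from -0.045 under TMM to 0.305 under total counts, while that of SB525334 against sham was 0.060 and -0.004. The call below sham was kept by 416 of 451 genes in all 4 scalings, and the call above sham by 243 of 818. The 243 genes had a median log2 difference of -0.78 in vehicle slices and 0.50 in treated slices. Of the genes that stayed changed, 4530 of 4659 stayed higher and 3074 of 4317 stayed lower in all 4. With the first principal component of the deposited quality metrics as a covariate, 188 genes ended below sham and 451 above. Without SB525334 libraries 1, 6 and 8 these numbers were 610 and 1010, and without sham libraries 1, 4 and 9 they were 424 and 731.

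For 801 raised and 1100 lowered genes no difference from sham was called with SB525334. A missed call does not show a return to the sham level, so the 95% interval of each difference was examined. For 1341 of the 1901 (70.5%) the interval lay within 1.5-fold of sham in either direction, and for 1597 within 2-fold. The raised genes among them had a median log2 difference of 0.75 in vehicle slices and 0.06 in treated slices, and 455 of 801 were within 1.5-fold. The lowered genes went from -0.64 to -0.02, and 886 of 1100 were within 1.5-fold. In direct comparison with vehicle, 698 of the 801 were lower and 986 of the 1100 higher, directions that the choice of the classes largely fixes.

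Other genes were called against sham with SB525334 but not for ligation alone. A missed call for ligation does not show that ligation left a gene unchanged. Of 2629 genes with no call between ligated and sham vehicle slices, 1759 (66.9%) were called with SB525334, which is under the background of 81.2%. Of these, 855 were higher than sham, with a median log2 difference of 0.67, and 904 were lower, with a median of -0.67. Differences of at least 2-fold were found for 239 of the higher and 226 of the lower genes. In direct comparison with vehicle, 767 of the 855 were higher and 812 of the 904 lower, while 88 and 92 were not called. A further 870 genes were called in neither comparison with sham.

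Calls were also counted by abundance. By mean CPM over the SB525334 and sham libraries, 57.7% of the 1517 genes under 1 CPM were higher and 12.8% lower with SB525334 than in sham. From 1 to 10 CPM (4032 genes) the shares were 48% and 31.9%. From 10 to 100 CPM (7127 genes) they were 39% and 45.2%, from 100 to 1000 CPM (1988 genes) 35.5% and 46.5%, and among the 111 genes at 1000 CPM or more 35.1% and 42.3%. In untreated ligated slices the shares among the 111 most abundant genes were 10.8% higher and 77.5% lower, and among the 1988 genes from 100 to 1000 CPM 19.3% and 69.7%. With total counts these vehicle shares were 17.1% and 67.6%, and 33.3% and 50.6%. Vehicle libraries took no part in forming the bands, so genes abundant only with vehicle can be missing from the upper ones. That can tilt the vehicle shares toward lower calls, and its part was not tested. A gene could pass the filter through the ligated groups alone, which adds higher genes to the scarce bands, so no direction is read from the bands under 10 CPM. Above 10 CPM lower calls outnumbered higher ones with SB525334 in each of the 4 scalings.

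**Figure D3:**
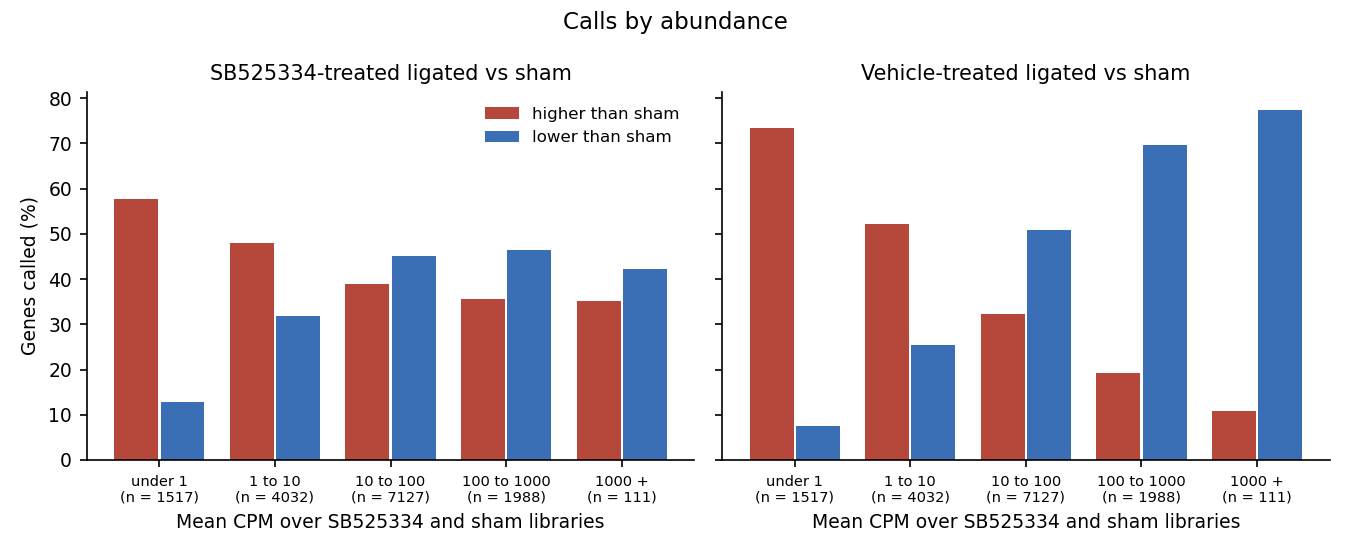
Percent of genes called higher (red) or lower (blue) than sham, by mean CPM (horizontal axis, number of genes under each band), for SB525334-treated ligated slices on the left and vehicle-treated ligated slices on the right. Among the 111 most abundant genes 42.3% are lower with SB525334 and 77.5% with vehicle. The mean CPM is taken over SB525334 and sham libraries only, which can tilt the vehicle shares toward lower calls.

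Genes in the authors' protein-coding table and outside it differed in balance. Of 13820 tested genes in the table, 42.6% were higher and 39.6% lower with SB525334 than in sham, with a median log2 difference of 0.04. Of 955 tested genes outside it, 46.2% were higher and 21.2% lower, with a median of 0.35. The corresponding medians for ligated vehicle slices were -0.07 and 0.26.

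The deposited quality metrics, which sort aligned reads by the annotated class of their source, were used for a view that needs no gene names. Over 33 library measures, each tested by an exact permutation test of 9 against 9 libraries (two-sided, 48620 arrangements, smallest possible p of 4.11e-05), 28 differed at an adjusted p under 0.05, 17 higher and 11 lower with SB525334. In 10 the groups did not overlap. Shares of read classes below are percentages of mapped alignments, as mean ± SD with n = 9 per group. Shares of counts are percentages of the counts assigned to genes. For reads that map to several places the base of the percentage is not given here.

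More genes were detected in treated ligated slices than in sham slices. Genes at 1 CPM or more numbered 13185, 12903, 12867, 12801, 12765, 13294, 12940, 13273 and 12842 in SB525334 libraries 1 to 9, and 12050 to 12326 (median 12153) in sham. Every treated library was above every sham library. The means were 12986 ± 207 and 12171 ± 89 (SD, n = 9 each; exact permutation adjusted p = 0.000136), against 13647 ± 105 in ligated vehicle slices (n = 10). Mean total counts assigned to genes were 14166817 in treated and 15931959 in sham libraries. The part of depth in the number of genes was not tested. The labels' library codes end in a position, a letter from A to H followed by a number; what the position stands for is not said. Within the 4 position numbers that held both groups (1 to 4) the differences were 782, 667, 618 and 757 genes. These rest on few libraries. Number 3 set SB525334 library 5 against sham library 3, number 2 held sham library 9 alone, and number 4 held SB525334 library 2 alone. SB525334 libraries 6 and 8 were at number 6, which held no sham library.

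Small nuclear and nucleolar RNAs stood higher with SB525334 than in sham, with means also above the vehicle mean. The share of small nucleolar RNAs (snoRNA), which guide chemical modification of ribosomal RNA, was 0.144% ± 0.0214 against 0.0786% ± 0.0135 in sham (exact permutation adjusted p = 0.000136) and 0.106% in ligated vehicle slices. Small Cajal body RNAs (scaRNA), which guide modification of spliceosomal RNAs, took 0.0566%, 0.0685%, 0.0825%, 0.0889%, 0.0656%, 0.0455%, 0.0613%, 0.0522% and 0.0671% in SB525334 libraries 1 to 9 and 0.0227% to 0.0275% in sham. Libraries 4 and 3 were the highest and library 6 the lowest, and no treated library reached down to the sham range. Their ratio of means was 2.56, that of snoRNA 1.84, and that of small nuclear RNAs (snRNA), the RNA components of the spliceosome, 2.48. The class that the annotation calls ribozyme rose from 0.297% ± 0.0323 to 0.451% ± 0.0906 (exact permutation adjusted p = 0.000582), with 8 of 9 treated libraries above all sham libraries.

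The share of RNAs annotated as misc_RNA was 2.73% ± 0.581 with SB525334 and 1.9% ± 0.128 in sham (exact permutation adjusted p = 0.000582), whereas ligated vehicle slices were at 1.66%. Within the 4 position numbers the differences were 1.02, 1.08, 0.641 and 0.985 percentage points. Counts in genes outside the protein-coding table followed the same direction. They took 16.7% ± 3.72 of counts against 11.7% ± 1.52 (exact permutation adjusted p = 0.002), with vehicle at 10.7%. The highest value, 24.2%, was in SB525334 library 4. The 10 genes with the largest gain together gained 5.08 percentage points, and all other genes outside the table together changed by -0.0884, so the net gain was held by those 10 genes, which were picked for their gain.

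Mitochondrial and long intergenic RNAs ended on opposite sides of sham with SB525334, though both means were above the vehicle mean. Mitochondrial transcripts, which encode respiratory chain subunits and their own ribosomal and transfer RNAs, took 2.48%, 2.49%, 3.19%, 4.49%, 2.82%, 2.19%, 2.79%, 2.45% and 2.88% in SB525334 libraries 1 to 9. In sham the share was 2.02% to 2.46%, and 7 of 9 treated libraries lay above that range. The means were 2.86% ± 0.677 and 2.25% ± 0.142 (exact permutation adjusted p = 0.00224), while the vehicle mean was 1.42%, so the mean share was below sham in ligated vehicle slices and above it with SB525334; the vehicle difference was not tested here. By position number the differences were 0.653, 1.38, 0.453 and 0.226 percentage points. Long intergenic noncoding RNAs (lincRNA) took 0.807% ± 0.0958 with SB525334 and 1.12% ± 0.101 in sham, with no overlap between the groups (exact permutation adjusted p = 0.000136), and 0.62% with vehicle. This class stayed lower than sham.

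Signs of RNA makeup moved with these results. Reads from protein-coding transcripts took 43.8% ± 2.69 with SB525334 and 50.4% ± 3.44 in sham (exact permutation adjusted p = 0.00176), against 42.7% with vehicle, and reads across exon junctions 8.56% ± 0.63 and 10.3% ± 0.845 (adjusted p = 0.00154, exact permutation). Intronic reads took 30% ± 2.07 and 27.4% ± 2.14 (adjusted p = 0.0262, exact permutation), but without SB525334 libraries 1, 6 and 8 the difference had an adjusted p of 0.0969 by the exact permutation test, and without library 6 alone one of 0.05. Within the 4 position numbers the intronic differences were 2.03, -3, 7.3 and 3.2 percentage points, so the direction did not hold in all 4. Reads that map to several places took 14.4% ± 3.44 and 11.3% ± 0.923 (exact permutation adjusted p = 0.0182), a difference of 3.15 percentage points that was 5.02 without SB525334 libraries 1, 6 and 8. Their part in the gene results was not tested beyond the fit with the quality component. The share of counts in the 100 most abundant genes was 35.7% ± 2.2 with SB525334 and 34.6% ± 1.66 in sham, a difference that did not pass (exact permutation adjusted p = 0.254), and 27.8% with vehicle.

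**Figure D4:**
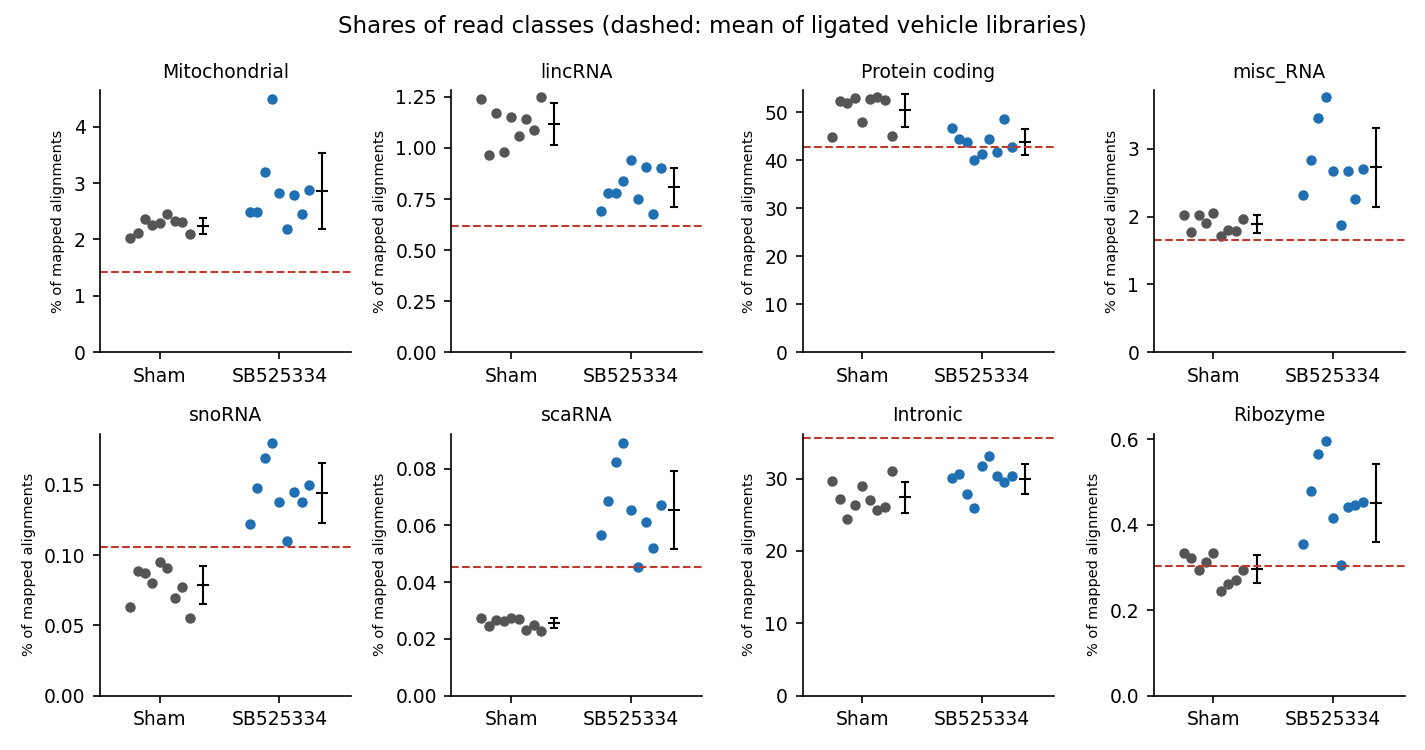
Share of mapped alignments (%, axes from 0) in 8 read classes for the 9 sham and 9 SB525334 libraries; points are libraries, bars the mean ± SD, and the dashed line the mean of the ligated vehicle libraries. The snoRNA, scaRNA and lincRNA panels show no overlap, and mitochondrial reads reach 4.49% in SB525334 library 4.

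By rule, 2 genes with the largest rises and 2 with the largest falls were followed in every library; their IDs have no symbols here, so their functions are not given. The gene ENSRNOG00000050024 was at 22.6, 26.6, 22.4, 33, 27.9, 30, 17.2, 22 and 30.6 CPM in SB525334 libraries 1 to 9. In sham it had 4 counts in all, 7 libraries were at 0 and the highest was at 0.205 CPM. Its log2 fold change was 9.34 ± 0.629 (SE; edgeR adjusted p = 3.98e-18), a size that depends on the prior count because sham is near 0. It was 8.12 in ligated vehicle slices, where the mean was 11.1 CPM, so the gene was a ligation-induced one. Its mean stood higher still with SB525334 (log2 difference from vehicle 1.22 ± 0.303 SE, edgeR adjusted p = 0.00042). The groups overlapped, since vehicle library 6 was at 30.7 CPM. Means with Sora (14.4 CPM) and Nint (18.4 CPM) were also above the vehicle mean, though Sora library 1 was at 0.

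The other rising gene, ENSRNOG00000011907, was highest in the SB525334 slices. It was at 90.3, 100, 121, 129, 155, 81.9, 137, 73.3 and 133 CPM in SB525334 libraries 1 to 9 and at 0.0897 to 1.02 CPM (median 0.397) in sham. Libraries 8, 6 and 1 were the lowest of the treated group, and all 9 were above every library of the other 4 groups. The log2 fold change from sham was 8.16 ± 0.191 (SE; edgeR adjusted p = 4.89e-36). The mean was 8.02 CPM in ligated vehicle slices, 16.1 with Sora and 14.6 with Nint. The log2 difference between SB525334 and vehicle was 3.82 ± 0.131 (SE; edgeR adjusted p = 1.13e-28).

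Both falling genes were abundant in sham and low in all ligated groups. ENSRNOG00000050499 was at 125 to 207 CPM (median 182) in sham and at 1.13, 0.511, 1.1, 0.566, 0.672, 0.287, 0.0894, 0.835 and 1.26 CPM in SB525334 libraries 1 to 9. Its log2 fold change was -7.94 ± 0.27 (SE; edgeR adjusted p = 1.64e-29), and against vehicle it was 0.30 ± 0.372, which did not pass (edgeR adjusted p = 0.468). ENSRNOG00000042543 was at 117 to 290 CPM (median 197) in sham and at 1.29, 1.45, 0.763, 0.0944, 0, 0.573, 0.536, 1.06 and 2.11 CPM in SB525334 libraries 1 to 9. Its log2 fold change was -7.82 ± 0.321 (SE; edgeR adjusted p = 3.95e-26), and against vehicle -0.48 ± 0.387, which did not pass either (edgeR adjusted p = 0.26). The highest treated value of either gene was 2.11 CPM, against a lowest sham value of 117 CPM.

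**Figure D5:**
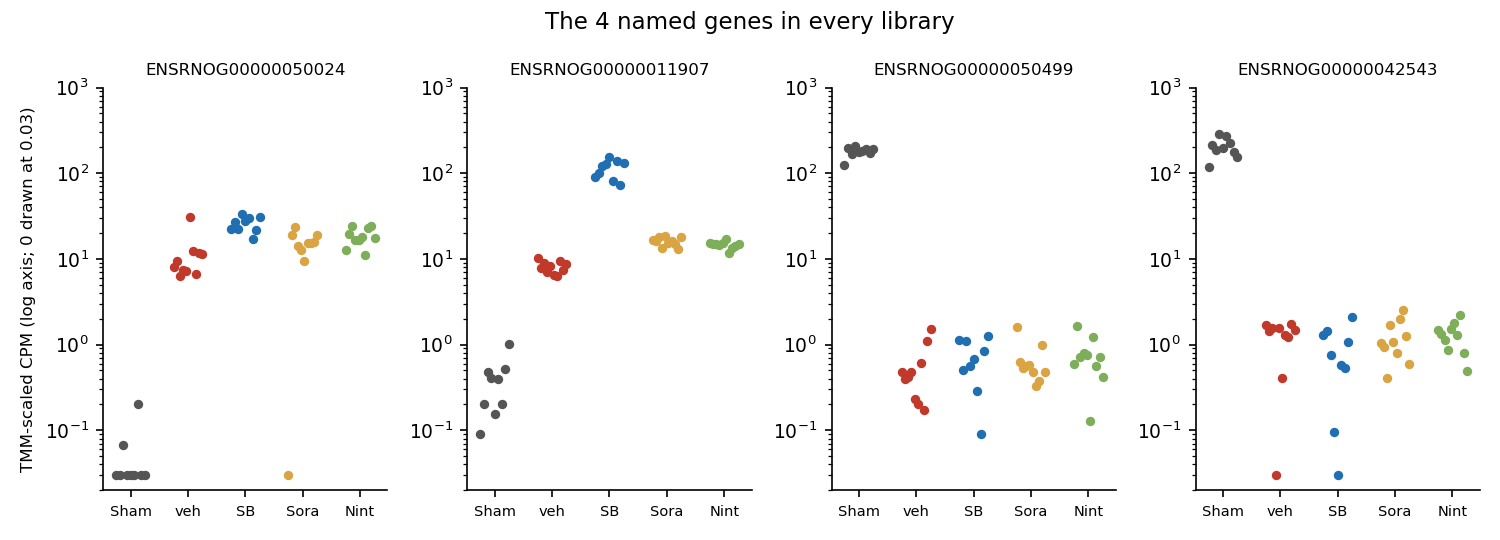
CPM (log axis, with 0 drawn at 0.03) of 4 genes in each library of the 5 groups, 1 point per library. ENSRNOG00000011907 lies at 73.3 to 155 CPM with SB525334, above every other group, whereas ENSRNOG00000050499 and ENSRNOG00000042543 are at 2.51 CPM or less in all ligated groups.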

How the data were processed

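Total RNA of liver slices was prepared with the RNeasy 96 kit and sequenced on Illumina libraries, per the labels' protocols. The authors deposited expected counts for 32883 genes; RSEM, edgeR and the build Rnor_6.0 are named per the submitters' processing notes, without roles. Of the values 8.02% were not whole at a tolerance of 1e-06, and they were rounded. A table of log2 CPM values for 14418 protein-coding genes and a table of 172 quality metrics (counts, percent values and other scores) were also deposited by the authors. The aligner, the annotation release and whether counting used strand are not stated in the sources at hand, so overlapping genes, antisense genes and near-identical copies are uncertain. Between 98.7% and 99.2% of read pairs were antisense per the deposited metrics.

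All 48 libraries in 5 groups were fitted in edgeR 4.0.16 (R 4.3.3; filterByExpr by group, TMM factors, robust quasi-likelihood test, 1 coefficient per group), with 0.05 as the limit for Benjamini-Hochberg adjusted p-values. Standard errors were derived from the F statistic, and 95% intervals from them. The prior count for log2 CPM was 2. Exact permutation tests (SciPy 1.17.1) served for library measures, adjusted over 33 measures. Replicates differed beyond sampling noise in every pair: chi-square divided by its degrees of freedom was at least 9.58 in SB525334 and 10.8 in sham (36 pairs each, genes with 20 counts or more). On simulated data for this comparison the test recovered 38% of 50 genes changed 1.25-fold and 72% of 50 changed 1.5-fold. It recovered 86% of 50 changed 2-fold and 98% of 50 changed 4-fold. It made 6 false calls among 13246 genes and gave 0 wrong directions. Only these few genes were changed there, whereas the measured groups differed at most genes (81.2%). The simulation therefore cannot show how false calls, directions or recovery fare under such wide differences, or how they depend on the scaling.

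Alternatives were RLE factors, total counts, no filter, a stricter filter (5 CPM or more in 9 libraries), DESeq2 1.42.0, a fit of each contrast's groups alone, weighted limma-voom and limma on the authors' log2 CPM (limma 3.58.1), the position number in the library code, the quality component, replicate number as a block, and libraries left out. The members, lists and rules were chosen with earlier results of these data known, and leaving out sham libraries 1, 4 and 9 was chosen after seeing the data.

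The reference table used here (47357 genes) gave symbols for 0 of 32883 IDs, so the gene lists, the core panel and the cell type markers were not analysed here. The rule for named genes then allowed 2 IDs that rose and 2 that fell: the largest log2 fold changes among called genes whose mean reached 10 CPM in the higher group and no overlap between the groups.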

Additional observations from a re-analysis of the deposited data

Results flagged for a closer look

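In groups of 9 libraries, a highest or lowest value was set apart where its gap to the nearest library exceeded 0.493 of the group's range. Of 51 groups examined 6 were, and chance alone marks about 1 in 20. SB525334 library 4 was set apart in 3 read classes: mitochondrial reads at 4.49% (the others 2.19% to 3.19%), mitochondrial ribosomal RNA at 2.06% (the others 0.791% to 1.36%) and miRNA at 0.101% (the others 0.0154% to 0.0548%). Without 1 library at a time the mitochondrial difference from sham was 0.414 to 0.701 percentage points. Among the genes followed by ID, ENSRNOG00000050024 was at 0.205 CPM in sham library 7 (the others 0 to 0.0678 CPM), ENSRNOG00000011907 at 1.02 CPM in sham library 9 (the others 0.0897 to 0.523 CPM) and ENSRNOG00000050499 at 125 CPM in sham library 1 (the others 168 to 207 CPM).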

How the results depend on the processing

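The counts of genes higher (6285 to 6390) and lower (5606 to 5745), of genes at least 2-fold higher (3778 to 3857) and lower (1810 to 2091), and of those that stayed higher (4625 to 4716) and lower (4249 to 4356) stayed within 1.5 times the reported count when any 1 library was left out, and under the other 13 alternatives. Ligation-changed genes not called against sham numbered 1884 to 2009 with 1 library left out and 2915 with no filter, where more genes were tested. Genes past sham numbered 424 to 504 below and 770 to 876 above with 1 library left out, 188 and 451 with the quality component, and 1286 and 243 with total counts; the cause was not tested. The intronic difference was 2.19 to 3.09 percentage points with 1 library left out, and 2.11 without SB525334 libraries 1, 6 and 8. The 4 log2 fold changes kept their direction and their call under all 31 alternatives, from 8.79 to 10.56 for ENSRNOG00000050024, 8.05 to 8.45 for ENSRNOG00000011907, -8.18 to -7.80 for ENSRNOG00000050499 and -8.62 to -7.56 for ENSRNOG00000042543.

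Replicate numbers did not pair sham with SB525334 libraries. Those with the same number correlated at -0.269 to 0.071 in their deviations from the group means, and 0 of 9 correlated best with their own number. A sham-operated rat cannot also be a ligated one, so this check could not find shared animals. Pairing between SB525334 and ligated vehicle libraries was not tested. With the replicate block 6309 genes were higher and 5691 lower. Depth limits genes near 0.173 to 0.239 CPM.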
